A study of Mus musculus with 6 samples.

Results

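The 10 genes described here, Cdkn1a, Mdm2, Zmat3, Sesn1, Aen, Ccng1, Phlda3, Plk2, Ei24 and Trp53inp1, are targets of the transcription factor p53 that are mostly tied to growth arrest and stress adaptation. Every probe whose platform gene symbol was one of these names was taken, which gave 23 probes of 45281 in the array table, for 10 of 21946 named genes. Of these, 22 passed the filter on dim probes, which asked for 3 or more arrays with a detection p below 0.05, and the remaining one is a probe of Mdm2. The genes were taken by name, with earlier results of these data known. RNA came from cortical neurons of C57BL/6J mice with the genotype Dicerflox/flox, at day 14 in culture, after a control lentivirus (control, 3 arrays) or a lentivirus that knocks down the microRNA miR-27b (knockdown, 3 arrays). Both groups carry the floxed Dicer alleles, both received virus at a multiplicity of infection of 5, and the labels name no Cre, no promoter of the vectors and no untransduced neurons. The series describes 3 neuronal preparations, and arrays of the same replicate number were treated as pairs where pair differences are given or a pair is left out. The main limma fit had group as its only term, so its SEs, intervals and adjusted p ignore the pairs. The replicate number entered an alternative fit, called the replicate block. Knockdown replicate 3 had the lowest rank correlations with other arrays, 0.876 to 0.886, while all pairs of arrays lay between 0.876 and 0.907. Without it the counts of member probes that rose and fell were 6 and 5, as with it.

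p53 is a stress-activated factor that is normally kept scarce by the ubiquitin ligase Mdm2, itself a product of a p53 target gene. When p53 is stabilised it binds pairs of short half-sites in DNA and raises genes that halt the cell cycle, repair DNA, temper growth signalling or start cell death. Cortical neurons in culture have left the cell cycle, and in neurons p53 is known mainly for its part in the response to DNA damage and in cell death.

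The labels name the microRNA knocked down as miR-27b, without an arm. The RefSeq sequence of its 3p arm (GRCm38.p6, chr13:63300760-63300780, plus strand) is shown with the seed, bases 2 to 8, in capitals, because the seed is the stretch with which a microRNA pairs to its targets.
mmu-miR-27b-3p: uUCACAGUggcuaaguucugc
No array value for miR-27b was used here, so the depth of the knockdown is not known from these data.

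Promoter windows from 250 bases before to 50 bases after a RefSeq start site (GRCm38.p6) were held for 8 of the 10 genes, 11 windows in all, and Zmat3 and Trp53inp1 were not among them. Both strands were searched for the p53 half-site, whose pattern is its own reverse complement, and for the cyclic AMP response element TGACGTCA, likewise its own reverse complement. A half-site was found in 7 of the 11 windows, in Cdkn1a, Mdm2, Sesn1, Aen, Ccng1 and Ei24, against 8.36% of 32851 windows of all genes. The 2 Aen windows overlap and share one half-site, which the 7 counts in both. The upstream Cdkn1a window was the single member window with 2 half-sites at most 13 bases apart, which 0.0731% of all windows hold. Plk2 was the single member with TGACGTCA, which 1.79% of all windows hold, and the 2 motifs did not overlap in any window printed. The 5 windows below all hold a motif and come from genes that rose (Cdkn1a, Aen), fell (Sesn1, Plk2) or did not pass the test (Mdm2). The other Cdkn1a window, the other Sesn1 window and the Phlda3 window held neither motif and are not shown. Capitals mark the half-sites, or in Plk2 the TGACGTCA.
Cdkn1a, chr17:29090729-29091028, plus strand: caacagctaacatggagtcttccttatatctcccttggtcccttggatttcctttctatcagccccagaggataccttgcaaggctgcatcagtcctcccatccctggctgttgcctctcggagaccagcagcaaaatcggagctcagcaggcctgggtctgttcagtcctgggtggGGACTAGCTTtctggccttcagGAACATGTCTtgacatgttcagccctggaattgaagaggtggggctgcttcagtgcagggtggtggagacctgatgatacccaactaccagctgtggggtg
Aen, chr7:78895808-78896107, plus strand: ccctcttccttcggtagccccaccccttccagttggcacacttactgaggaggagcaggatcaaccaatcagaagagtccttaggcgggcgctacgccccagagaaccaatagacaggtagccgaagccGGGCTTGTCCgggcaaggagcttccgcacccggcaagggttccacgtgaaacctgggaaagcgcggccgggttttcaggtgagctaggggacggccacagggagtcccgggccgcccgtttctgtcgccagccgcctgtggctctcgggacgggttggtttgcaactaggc
Sesn1, chr10:41887189-41887488, plus strand: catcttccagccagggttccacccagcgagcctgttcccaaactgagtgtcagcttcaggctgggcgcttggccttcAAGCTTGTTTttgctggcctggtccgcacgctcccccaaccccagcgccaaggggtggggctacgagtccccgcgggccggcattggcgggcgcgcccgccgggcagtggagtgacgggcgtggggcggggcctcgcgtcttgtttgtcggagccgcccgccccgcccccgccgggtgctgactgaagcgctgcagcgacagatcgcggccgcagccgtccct
Mdm2, chr10:117710709-117711008, minus strand: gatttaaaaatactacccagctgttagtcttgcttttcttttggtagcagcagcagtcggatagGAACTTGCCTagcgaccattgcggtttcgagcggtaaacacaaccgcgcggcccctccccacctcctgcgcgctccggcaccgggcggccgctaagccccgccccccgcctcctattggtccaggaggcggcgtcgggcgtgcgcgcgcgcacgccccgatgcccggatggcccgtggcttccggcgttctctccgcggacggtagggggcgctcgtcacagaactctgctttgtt
Plk2, chr13:110394794-110395093, plus strand: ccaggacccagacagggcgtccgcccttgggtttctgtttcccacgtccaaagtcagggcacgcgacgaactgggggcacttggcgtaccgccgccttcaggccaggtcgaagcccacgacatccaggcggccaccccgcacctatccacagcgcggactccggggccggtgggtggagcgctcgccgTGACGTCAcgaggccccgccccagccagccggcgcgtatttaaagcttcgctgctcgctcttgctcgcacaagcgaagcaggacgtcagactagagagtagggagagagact
These letters are a description of sequence and no binding was measured.

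The 10 genes did not move together after miR-27b knockdown. Probes of 4 genes rose, those of Cdkn1a, Aen, Phlda3 and Trp53inp1, and probes of 3 genes fell, those of Zmat3, Sesn1 and Plk2. No probe of Mdm2, Ccng1 or Ei24 passed. By probe, 6 rose, 5 fell and 11 of 22 did not pass, at a Benjamini-Hochberg adjusted p under 0.05 in limma fitted on all 18627 probes that passed the filter. Over all those probes 27.4% were called, 13.9% higher and 13.6% lower. The median difference, knockdown minus control, was 0.25 on the log2 scale for the 22 probes and -0.0074 for all probes. The 2 groups of arrays did not overlap for 16 of the 22 probes, against 45.6% of all probes.

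**Figure D1:**
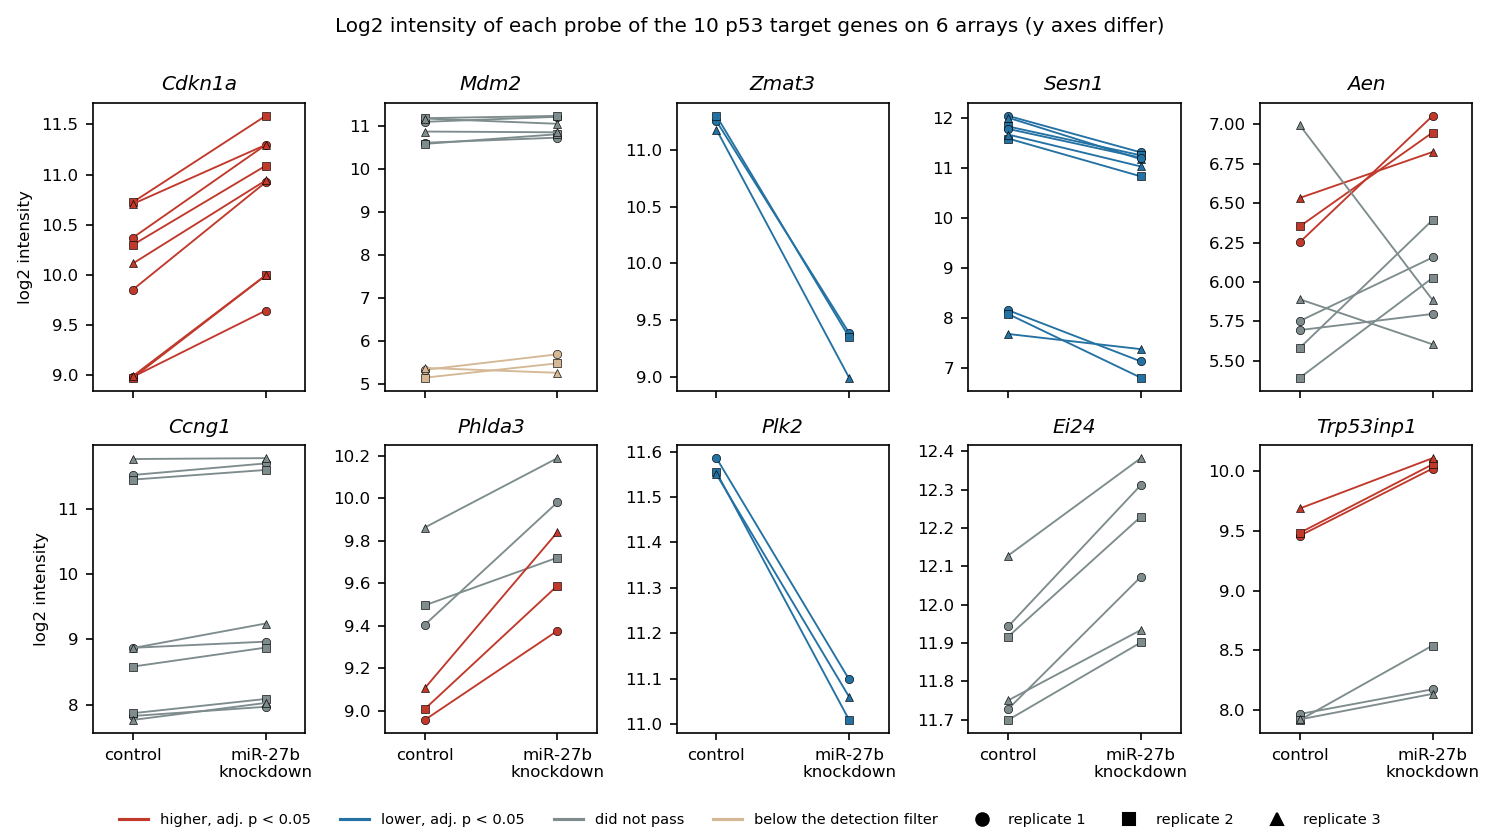
Log2 intensity (y axis, a separate range for each gene) of every probe of the 10 genes in control and miR-27b knockdown arrays (x axis), with a line for each same-numbered pair of arrays and the colour giving the call. All lines of Cdkn1a run up and all lines of Zmat3, Sesn1 and Plk2 run down, while the probe of Zmat3 starts near 11.25 and ends near 9.24.

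The largest change among the 10 genes belonged to Zmat3, which encodes a zinc finger protein that binds RNA. Its one probe, ILMN_2418426, had log2 intensities of 11.26, 11.31 and 11.18 in control replicates 1 to 3 and of 9.39, 9.35 and 8.99 in the knockdown replicates of the same numbers. Every knockdown array lay far below every control array. The difference was -2.01 (SE 0.13, 95% interval -2.31 to -1.71, n = 3 per group, limma adjusted p = 0.000407), a 4.02-fold fall. It was -1.87, -1.96 and -2.19 in the 3 pairs, and it stayed past the threshold in all 20 alternative settings run, at between -2.17 and -1.88. Of all genes tested, 5% had differences at or below -0.77.

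Cdkn1a encodes the inhibitor of cyclin-dependent kinases through which p53 arrests the cell cycle, and all 3 of its probes rose. The brightest, ILMN_2634083, read 10.37, 10.73 and 10.71 in controls and 11.30, 11.58 and 11.30 after knockdown. It rose by 0.79 (SE 0.14, 95% interval 0.46 to 1.12, limma adjusted p = 0.00797), or 1.73-fold. ILMN_2846775 read 9.86, 10.30 and 10.12 in controls and 10.92, 11.09 and 10.94 after knockdown, a rise of 0.89 (SE 0.13, limma adjusted p = 0.00438). The dimmest probe, ILMN_2846776, read 8.99, 8.98 and 8.99 in controls and 9.65, 9.995 and 9.997 after knockdown, also a rise of 0.89 (SE 0.12, limma adjusted p = 0.00306). The groups did not overlap for any of the 3 probes, and their differences in single pairs ran from 0.59 to 1.07.

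Mdm2, whose product marks p53 for degradation and whose gene p53 induces as a feedback, did not pass on either tested probe. The brighter, ILMN_1250774, read 11.09, 11.17 and 11.16 in controls and 11.20, 11.22 and 11.04 after knockdown. The groups overlapped, and the difference of 0.016 had a 95% interval of -0.20 to 0.23 (limma adjusted p = 0.912). ILMN_2850753 read 10.60, 10.57 and 10.86 against 10.72, 10.80 and 10.84, a difference of 0.11 with an interval of -0.15 to 0.36 (limma adjusted p = 0.493). The intervals of both leave out a rise as large as the smallest of the Cdkn1a probes, although a test between the genes was not run. The third probe, ILMN_1229882, was not well above background on any array, with log2 intensities between 5.15 and 5.69.

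Sesn1 encodes a sestrin, a stress protein that restrains the growth kinase complex mTORC1, and all 3 of its probes fell. ILMN_2654074 read 12.04, 11.83 and 12.00 in controls and 11.31, 11.25 and 11.17 after knockdown, a difference of -0.71 (SE 0.096, 95% interval -0.94 to -0.48, limma adjusted p = 0.00325). ILMN_3136744 read 11.78, 11.58 and 11.66 against 11.20, 10.83 and 11.03, a difference of -0.66 (SE 0.12, limma adjusted p = 0.00936). The dimmer ILMN_3059476 read 8.15, 8.07 and 7.67 against 7.13, 6.80 and 7.37, a difference of -0.87 (SE 0.19, limma adjusted p = 0.0168). None of the 3 probes had overlapping groups. The dim probe was the least even across pairs, at -1.02, -1.27 and -0.30, and it did not pass without control replicate 1 (-0.77, adjusted p = 0.0587) or without control replicate 2 (-0.81, adjusted p = 0.0548).

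Plk2 encodes a polo-like kinase that is induced by p53 and, in neurons, by synaptic activity. Its one probe, ILMN_1260448, read 11.59, 11.55 and 11.55 in controls and 11.10, 11.01 and 11.06 after knockdown. It had the narrowest spread of the genes that fell, with SDs of 0.019 and 0.045. The difference was -0.51 (SE 0.078, 95% interval -0.69 to -0.32, n = 3 per group, limma adjusted p = 0.0052), a 1.42-fold fall, and it was -0.49, -0.55 and -0.49 in the pairs. Activity-induced genes fell in the same arrays, 10 of 14 tested, while 1, Crem, rose and 3 did not pass, with a median of -1.57 (-1.24 without background correction). Over all genes, each by its brightest tested probe, 14% were lower and 15.4% higher. Nr4a1, Nr4a3 and Ier2 were not detected on any array and not tested. The 10 activity-induced genes that fell include Fosb, detected on 3 of 3 control and 0 of 3 knockdown arrays, which passed the filter through the controls alone. Arc, Egr4, Npas4, Fos and Egr1 differed by -2.39 to -2.04 (limma adjusted p from 0.000407 to 0.00266). Without background correction Npas4 differed by -1.26 in place of -2.09. The part of neuronal activity in the Plk2 result was not tested.

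**Figure D2:**
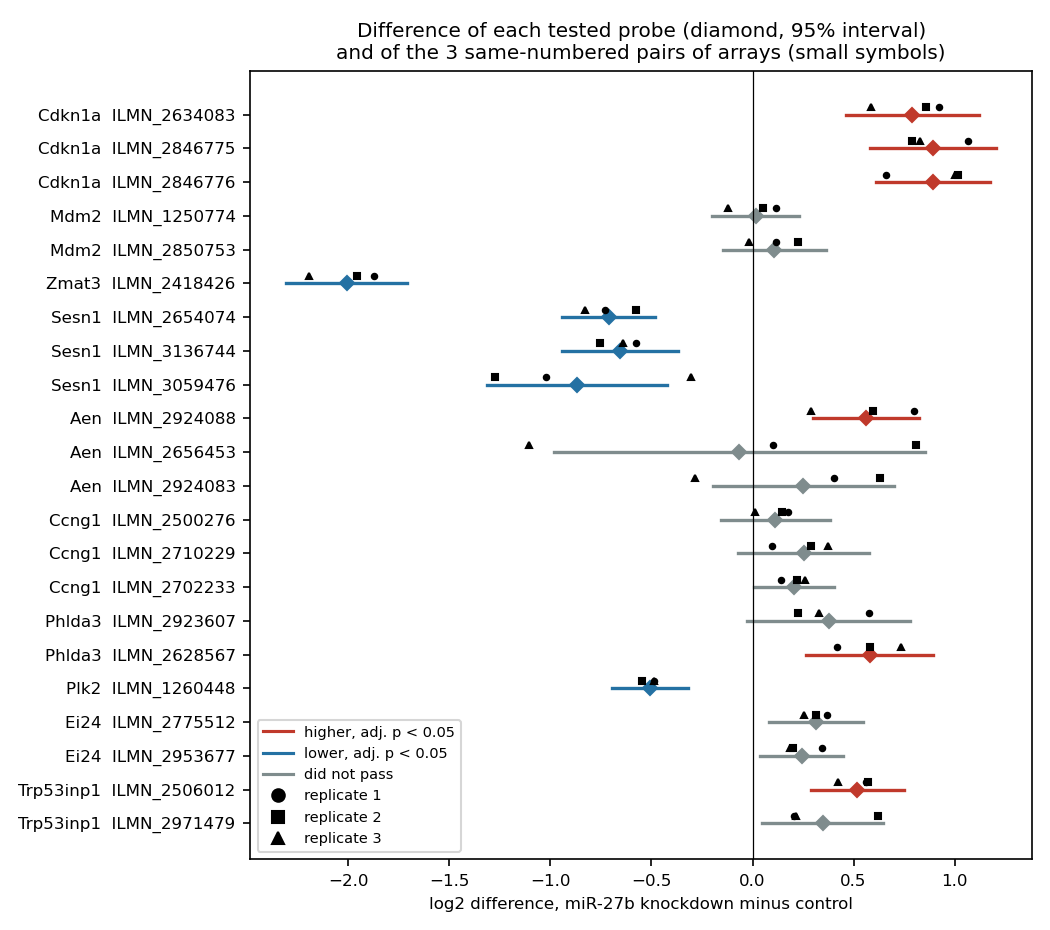
Log2 difference (x axis, knockdown minus control) of each of the 22 tested probes (y axis), with the limma estimate as a diamond, its 95% interval as a bar, and the 3 same-numbered pairs of arrays as small symbols. Cdkn1a lies between 0.79 and 0.89 and Zmat3 alone lies near -2.01, while both Mdm2 intervals contain 0.

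The other genes that rose did so on some of their probes only. Trp53inp1 encodes a nuclear protein that promotes p53 activity and takes part in autophagy. Its brighter probe, ILMN_2506012, read 9.46, 9.49 and 9.69 in controls and 10.02, 10.06 and 10.11 after knockdown, a rise of 0.52 (SE 0.096, 95% interval 0.29 to 0.75, limma adjusted p = 0.00962). Its dimmer probe, ILMN_2971479, read 7.97, 7.92 and 7.92 against 8.17, 8.54 and 8.14, a difference of 0.35 (SE 0.13) that did not pass (limma adjusted p = 0.0836). The groups did not overlap on either probe.

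Phlda3 encodes a pleckstrin homology domain protein that restrains the survival kinase Akt. Its dimmer probe, ILMN_2628567, read 8.96, 9.01 and 9.11 in controls and 9.38, 9.59 and 9.84 after knockdown, a rise of 0.58 (SE 0.13, limma adjusted p = 0.0205). Its brighter probe, ILMN_2923607, read 9.40, 9.50 and 9.86 against 9.98, 9.72 and 10.19, so that the groups overlapped, and its difference of 0.38 (SE 0.17) did not pass (limma adjusted p = 0.144). The call on the dimmer probe was lost without control replicate 1 (adjusted p = 0.0696), control replicate 2 (adjusted p = 0.0596) or knockdown replicate 2 (adjusted p = 0.0554). Whether the 2 probes differ from each other was not tested.

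Aen encodes a nuclease that p53 induces and that promotes cell death. Its signal lay near background, and 2 of its 3 probes were detected on 1 of 3 control and 2 of 3 knockdown arrays. The third, ILMN_2924088, was detected on all 6 arrays and read 6.25, 6.35 and 6.53 in controls and 7.05, 6.95 and 6.82 after knockdown. It rose by 0.56 (SE 0.11, 95% interval 0.30 to 0.83, limma adjusted p = 0.0124), and by 0.32 without background correction (adjusted p = 0.0193). ILMN_2924083 differed by 0.25 (limma adjusted p = 0.366) and ILMN_2656453 by -0.065 (limma adjusted p = 0.919). The last had 1 control array, replicate 3, at 6.99 while the other 2 read 5.70 and 5.58.

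Ei24 and Ccng1 had differences above 0 on all of their probes, and none passed. Ei24 encodes a membrane protein of the endoplasmic reticulum that takes part in autophagy. Its brighter probe, ILMN_2775512, read 11.94, 11.92 and 12.13 in controls and 12.31, 12.23 and 12.38 after knockdown, without overlap. The difference of 0.31 (SE 0.097, 95% interval 0.080 to 0.54) had a limma adjusted p of 0.0553, and it fell under 0.05 in 8 of 20 alternative settings. Its other probe differed by 0.24 (SE 0.086, limma adjusted p = 0.0797).

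Ccng1 encodes cyclin G1, which works with Mdm2 and a phosphatase to restrain p53. Its brightest probe, ILMN_2500276, read 11.52, 11.45 and 11.76 in controls and 11.70, 11.60 and 11.78 after knockdown, and the groups overlapped. The differences of its 3 probes were 0.11, 0.25 and 0.21, with limma adjusted p of 0.498, 0.211 and 0.111. The 95% interval of the brightest ran from -0.16 to 0.38. On ILMN_2710229 and ILMN_2702233 the groups did not overlap, and the intervals were -0.070 to 0.58 and 0.0082 to 0.40.

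For a single probe, a two-sided exact permutation test of 3 against 3 arrays cannot give a p below 0.1, and the 16 probes without overlap reached that value. The fit with the replicate number as a block, in which 27.7% of all probes were called, gave the same calls for all 22 probes. Leaving out a whole pair removed more calls, with 2 higher and 3 lower probes left without replicate 1, 2 and 2 without replicate 2, and 6 and 4 without replicate 3. The calls on Aen, Phlda3, Plk2, Trp53inp1, the brightest Cdkn1a probe and the dimmest Sesn1 probe were each lost without replicate 1 and again without replicate 2. Sesn1 probe ILMN_3136744 passed in 17 of 19 alternatives run on it, with a highest limma adjusted p of 0.0567. Over all probes 8.14% were called without replicate 1 and 9.14% without replicate 2. The probe of Zmat3, the brightest Sesn1 probe and the 2 other Cdkn1a probes passed in every alternative run on them.

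When arrays were scaled to a common median and not quantile-normalised, the median of all probes moved from -0.0074 to -0.13, and the calls over all probes went from 2581 higher and 2526 lower to 1071 higher and 2115 lower. All 5 lower member probes passed under that scaling as well, and 2 higher ones did, both of Cdkn1a. Set against the shifted median of all probes, the 3 Cdkn1a probes stood at 0.72, 0.85 and 0.88, the called probes of Aen, Phlda3 and Trp53inp1 at 0.66, 0.57 and 0.50, and the 2 Mdm2 probes at -0.061 and 0.065, and the brightest Ccng1 probe at 0.014. Knockdown replicate 3 stood apart under that scaling, with a median log2 intensity of 8.30 over the tested probes against 8.61 to 8.69 on the other 5 arrays.

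**Figure D3:**
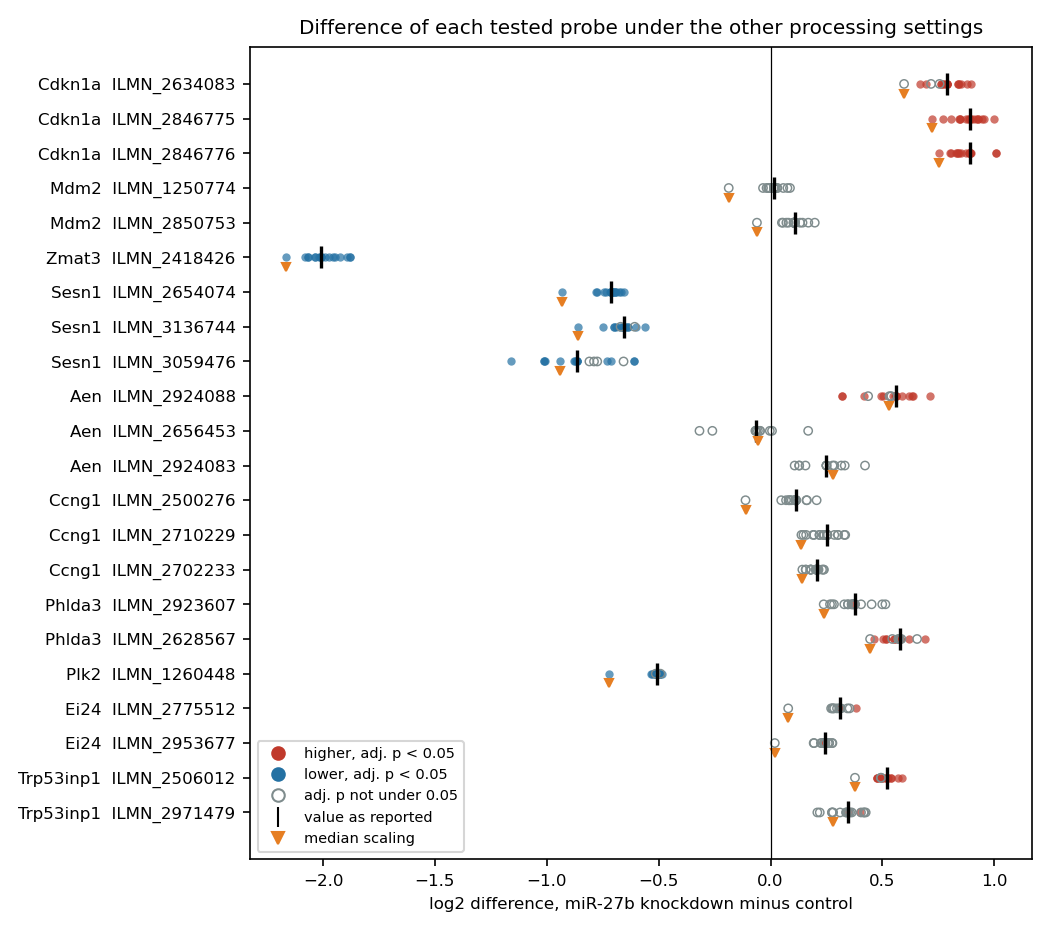
Log2 difference (x axis, knockdown minus control) of each tested probe (y axis) under each alternative setting, filled where the adjusted p was under 0.05, with the reported value as a bar and median scaling as a triangle. Zmat3 stays between -2.17 and -1.88 and filled throughout, while median scaling, which moved the median of all probes to -0.13, places the Mdm2 probes at -0.19 and -0.061.

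Other genes of the p53 pathway were described as lists, each gene by its brightest tested probe. Over all 11280 genes tested in this way 29.4% were called, 15.4% higher and 14% lower, with a median difference of 0.0058. By the same measure Cdkn1a, Aen and Trp53inp1 were called higher and Zmat3, Sesn1 and Plk2 lower. Phlda3 was not called on its brightest probe (0.38, limma adjusted p = 0.144). Of 9 p53 targets of cell death that were tested, 3 were higher, 1 was lower and 5 missed the threshold (median 0.11). Bbc3, which encodes the death-inducing BCL2 relative PUMA, rose by 1.17 (SE 0.12, limma adjusted p = 0.00144), and its other 2 tested probes rose as well. Pmaip1, which encodes the related protein NOXA, rose by 0.64 (SE 0.11, limma adjusted p = 0.00757), but its other tested probe differed by only 0.21 (adjusted p = 0.562). Bid, another BCL2 relative, rose by 0.40 (limma adjusted p = 0.0222), and Trp53i11 fell by 0.49 on the log2 scale (limma adjusted p = 0.0345). With median scaling Bbc3 was the single gene of this list still called.

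Of 22 other p53 targets of arrest, repair and metabolism, 3 were higher, 2 lower and 17 not past the threshold (median -0.0077). The DNA damage recognition gene Xpc rose by 0.81 (SE 0.11, limma adjusted p = 0.00359), Prkab1, a subunit gene of the energy-sensing kinase AMPK, by 0.66 (limma adjusted p = 0.00562), and Triap1, a mitochondrial survival factor gene, by 0.36 (limma adjusted p = 0.0225). Trp53inp2, the relative of Trp53inp1 with a role in autophagy, differed by -0.82 (SE 0.094, limma adjusted p = 0.00195), and Sod2, the mitochondrial superoxide dismutase gene, by -0.38 (limma adjusted p = 0.0144). With median scaling Xpc was the single one of the 3 still called higher. With the replicate block 5 genes of this list fell instead of 2, the added ones being Pcna, Ckap2 and Ptp4a3.

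Of 17 tested p53 regulators 0 passed in limma (median 0.076), and 2 higher and 1 lower had an unadjusted p below 0.05. Mdm4, the partner of Mdm2 in holding p53 in check, differed by -0.28 (SE 0.14, limma adjusted p = 0.175). The kinase gene Atr differed by -0.40 (limma adjusted p = 0.0708) and the nuclear body gene Pml by 0.58 (limma adjusted p = 0.073, or 0.0476 with the replicate block). The block also called the checkpoint kinase gene Chek2, named here after its value was seen, at 0.63 (adjusted p = 0.0218). Trp53 itself could not be described, because no probe of the array carried that symbol.

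Family relatives of the 10 genes likewise went both ways, with 1 of 14 tested higher, 3 lower and 10 not past the threshold. Cdkn1c, which encodes p57, a relative of the Cdkn1a product, rose by 2.08 (SE 0.31, limma adjusted p = 0.0047), or by 1.38 without background correction. Zmat4 differed by -0.66 and Phlda1 by -0.63 (limma adjusted p = 0.0077 and 0.0363), beside Trp53inp2 above. With the replicate block 5 relatives fell, Sesn3 and Plk1 being added. Of 19 tested cell cycle genes of the kind that p53 lowers through Cdkn1a, 1 was higher, 1 lower and 17 not past the threshold (median -0.090). The array holds 26 such genes. Ccne2, Cdc25c and Mki67 were not tested, nor were Ccnb2, Ccna2, Bub1 and Cdk6, which were not detected on any array. Mcm7, a subunit gene of the replication helicase, rose by 0.98 (SE 0.11, limma adjusted p = 0.00185), and Ccne1, the cyclin E1 gene, differed by -0.52 (limma adjusted p = 0.0275, or 0.0571 with median scaling and 0.0573 with the replicate block, which called Cdk1 and Plk1 lower instead). The integrated stress response raises its targets through the factor Atf4, and of 14 such genes 6 were higher and 0 lower in limma (median 0.64), with 7 higher and 0 lower at an unadjusted p below 0.05. Trib3, Chac1, Mthfd2 and Atf4 rose by 0.80 to 3.27 (limma adjusted p from 0.00415 to 0.0111). The 3.27 belongs to Trib3, which was detected on 2 of 3 control arrays and differed by 2.37 without background correction. The Atf4 probe was not called with median scaling (0.52, limma adjusted p = 0.107). The 6 include Atf3, which passed the filter through the knockdown arrays alone, detected on 0 of 3 control and 3 of 3 knockdown arrays; its difference of 1.24 was 0.70 without background correction. Without replicate 1, 0 genes of that list were called.

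**Figure D4:**
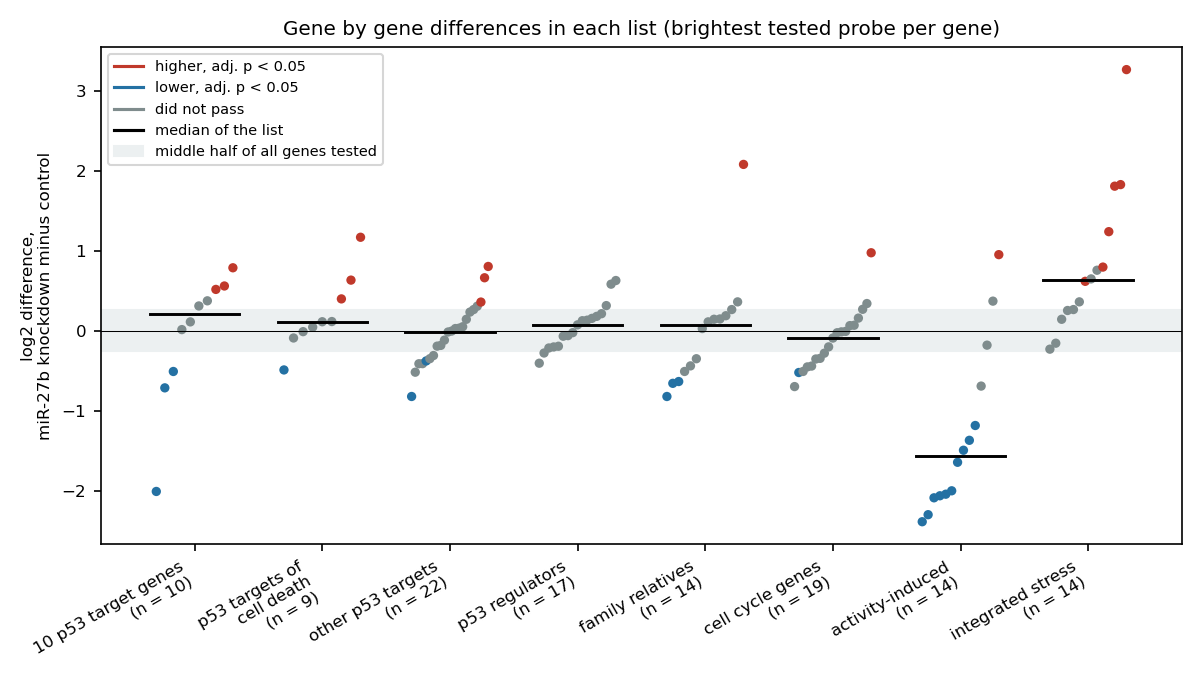
Log2 difference (y axis, knockdown minus control) of each gene, by its brightest tested probe, in the 10 p53 target genes and 7 other lists (x axis), with a black line at each list's median and a grey band from the lower to the upper quartile of all genes. The median is -1.57 for activity-induced genes and 0.64 for integrated stress genes, while the p53 regulator list centres on 0.076.

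Genes whose 6 values ran closest to those of Cdkn1a and Zmat3 were named by the root mean square distance between log2 values centred on each gene's mean. For Cdkn1a these were Tradd (distance 0.044), Kdm6b (0.067) and Tmem161a (0.068). For Zmat3 they were Ogfod1 (0.080), Tppp (0.11) and Socs5 (0.11), which differed by -1.99, -2.09 and -1.87. These rankings describe the 6 arrays alone.

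Arrays had 17498 to 19163 probes detected, and their mean intensities lay between 669 and 788. The neuronal label was checked with 9 pan-neuronal markers, of which 7 were tested, 1 rose and 1 fell, with a summed level of 69717 to 73814 normalised intensity units in controls and 70874 to 75875 after knockdown. Snap25 and Nefl were not detected on any array. Inhibitory neuron markers were lower, 7 of 10 tested (1 higher), with a summed level of 68718 to 74353 in controls and 38675 to 44458 after knockdown, and Gad2, Dlx5 and Lhx6 were not detected. Astrocyte markers were lower in 5 of 10 tested, with 24808 to 34054 against 18581 to 23339, and S100b was not detected. The 5 include Gjb6, detected on 3 of 3 control and 0 of 3 knockdown arrays. Of 4 tested oligodendrocyte lineage markers 0 passed in limma (0 higher and 1 lower at an unadjusted p below 0.05, 2 lower with the replicate block), with a summed level of 8291 to 11142 in controls and 4815 to 7731 after knockdown, and Olig2, Mog, Sox10 and Mag were not detected. Of 9 tested excitatory neuron markers 2 were higher and 2 lower, with 21737 to 22501 against 21386 to 22780. Of 10 microglia markers 1, Aif1, was tested, and 7 were not detected on any array. The part of these shifts in the results on the 10 genes was not tested, and in bulk RNA fewer cells of a type and less RNA per cell cannot be told apart.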

How the data were processed

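Total RNA (500 ng) from cortical neurons, seeded at 500000 per well, was labelled with biotin and read on an Illumina bead array, per the labels' protocols. The deposited table gives 1 intensity per probe and array, not normalised between arrays, and a detection p-value beside it, per the file headers. How the scanner corrected background is not given in the sources used here. The authors' other table of normalised intensity, tried as an alternative, stayed within 0.00462 (log2) of quantile-normalised intensities without background correction. It is therefore nearly the same as the alternative without background correction, and the pair does not count as separate checks.

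Intensities were background-corrected by normexp from the detection p-values (offset 16), quantile-normalised and put on the log2 scale as in neqc of limma 3.58.1, R 4.3.3. Differences are knockdown minus control from lmFit and eBayes on 18627 probes, with Benjamini-Hochberg adjustment over all of them. The fit was also run on simulated data without pairs, in which far fewer probes changed than were called here. That run therefore does not test the calls reported. Symbols came from the platform annotation (35784 probes with 1 symbol, 9497 with none), and 937 were updated through RefSeq (GRCm38.p6). Sequences are from RefSeq. The files name no build, so the only coordinates given are those of the RefSeq sequences printed.

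Deviations of same-numbered arrays from their group means correlated at 0.115, 0.215 and 0.227, and those of control and knockdown arrays with unlike numbers at -0.191 to 0.0241. The numbers were therefore taken as pairs, although the labels do not state the pairing outright. The pairs were used for pair differences, for the replicate block and for leaving out pairs, but not in the main fit. The named genes are all 10 members and, for each list, up to 5 called genes ranked by size of difference (where none was called, 2 ranked by p), plus Mdm4. Members and lists were chosen with earlier results of these data known. Alternatives covered background, scaling, starting values, filters, pairing, variance model, array weights, choice of probe and leaving out arrays or pairs.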

Additional observations from a re-analysis of the deposited data

How the results depend on the processing

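All 11 calls on the 10 genes held without background correction, with an offset of 50, with cyclic loess, with the deposited normalised table, without a filter, with detection p under 0.01 on all 6 arrays, with a trended robust variance, with array weights and with the replicate block, which changed no call on these genes; Aen was not tested under the stricter detection. Median scaling left 2 higher member probes. With 1 probe per gene 10 member probes were tested, 4 higher and 3 lower. Ei24 was then called higher (0.31, limma adjusted p = 0.0427), and Phlda3 was not called on its brighter probe (0.38, limma adjusted p = 0.132). Leaving out arrays or pairs gave 2 to 7 higher and 2 to 5 lower member probes. Uncalled probes lay below 0 with median scaling for Mdm2 (-0.19 and -0.061) and the brightest Ccng1 probe (-0.11); that scaling moved the median of all probes to -0.13, against which the second Mdm2 probe and the Ccng1 probe stood above 0, at 0.065 and 0.014. The sign also turned with cyclic loess for Mdm2 (-0.0062) and with array weights for Aen probe ILMN_2656453 (0.17). Leaving out arrays or pairs moved Mdm2 probe ILMN_1250774 between -0.034 and 0.087 and this Aen probe between -0.32 and 0.0065. The cause of these changes was not tested.

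List counts were small and moved as follows. Without background correction, and with the deposited table, 1 p53 regulator was higher, 4 other p53 targets were lower and 2 activity-induced genes were higher; an offset of 50 gave the same 4 and 2. Median scaling gave 1 cell death target higher and 0 lower, and 1 other p53 target higher. No filter gave 0 cell death targets and 0 cell cycle genes lower. Detection p under 0.01 on all 6 arrays gave 1 regulator higher and 1 lower, 4 other targets lower, 0 relatives higher and 2 activity-induced genes higher. The replicate block gave 2 regulators higher, 5 other targets, 5 relatives and 2 cell cycle genes lower, and 2 activity-induced genes higher, and it called 9 integrated stress genes against 6. A trended robust variance gave 1 regulator, 2 cell cycle and 2 activity-induced genes higher and 4 other targets lower. Array weights gave 1 regulator and 2 activity-induced genes higher, and 1 probe per gene gave 4 other targets lower and 2 activity-induced genes higher. Leaving out arrays or pairs gave 0 to 2 regulators higher and 0 to 1 lower, 1 to 3 cell death targets higher and 0 to 1 lower, 1 to 3 other targets higher and 1 to 3 lower, 0 to 1 relatives higher and 1 to 3 lower, 1 cell cycle gene higher and 0 to 1 lower, 1 to 2 activity-induced genes higher and 9 to 11 lower, and 0 to 7 integrated stress genes higher, the 0 without replicate 1. These zero counts are limma's. Signal over background limits Aen and the third Mdm2 probe, and 3 arrays per group limit every value.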
